A study of Mus musculus with 12 samples.

Results

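The insulin-like growth factor (IGF) axis was followed through 10 genes, matched to probes by gene symbol. They were the ligands Igf1 and Igf2, the receptors Igf1r and Igf2r, the adaptor Irs1 and the binding proteins Igfbp2, Igfbp3, Igfbp4, Igfbp5 and Igfbp6. These genes were chosen with earlier results of these data known, so their counts beside all genes are a description. All 10 had at least 1 probe detected on 2 or more arrays, and they stood among 10346 genes that met this filter. They were read by 20 probes. The samples were 12 Illumina BeadChip arrays of C2C12, an established mouse myoblast line that fuses into myotubes when serum is withdrawn, in 6 groups of 2 arrays. GM was wild-type cells in growth medium with 15% serum, and DM was wild-type cells kept for 18 h in ITS differentiation medium. The other 4 groups received siRNA pools in growth medium. siScramble cells got a control pool of scrambled sequence, and the pools of siBRG1, siBAF60b and siBAF60c cells targeted the transcripts for BRG1, BAF60b and BAF60c. These cells were moved to the same differentiation medium 36 h later and harvested after 18 h. BRG1 is the ATPase of the SWI/SNF chromatin remodelling complex, and BAF60b and BAF60c are alternative subunits of it. GM and DM carried the transfection entry "control", and the labels do not say whether a reagent without siRNA was used on them. All groups came from 1 cell line. Nothing in the labels says that the 2 arrays of a group were separate cultures, so the p-values may measure technical spread.

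IGF1 and IGF2 are secreted peptides that act through the tyrosine kinase receptor IGF1R, whose signal is passed on by adaptors such as IRS1 to the PI3K and AKT pathway and to the RAS and ERK pathway. IGF2R, the cation-independent mannose 6-phosphate receptor, takes up IGF2 and delivers it for degradation, and the IGF binding proteins hold the ligands outside the cell and limit or prolong their action. In muscle, IGFs drive both proliferation and differentiation of myoblasts, and differentiating myoblasts are known to make their own IGF2 and to secrete IGFBP5.

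The start sites of the members differ in E-boxes (CANNTG), a broad motif that includes the sites of myogenic factors such as MyoD. Not every match is such a site, and a match alone does not show binding. The 250 bases before each annotated start are shown for Igf1 and Igf2 as the ligands, and for Igf2r, Igfbp3 and Igfbp5 as the genes that rose in both DM and siScramble, so that windows of genes that moved together can be compared. They run 5′ to 3′ on the gene's strand, from RefSeq on GRCm38.p6, and capitals mark every CANNTG. The motif reads the same on both strands, and no matches overlapped. All 10 members matched the RefSeq table by symbol.
Igf1 (chr10:87860861-87861110, plus strand): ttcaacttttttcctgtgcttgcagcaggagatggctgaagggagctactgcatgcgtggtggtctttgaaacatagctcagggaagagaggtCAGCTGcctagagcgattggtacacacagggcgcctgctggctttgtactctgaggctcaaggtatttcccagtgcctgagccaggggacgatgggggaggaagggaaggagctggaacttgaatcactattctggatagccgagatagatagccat
Igf2, first of 4 annotated starts (chr7:142666817-142667066, minus strand): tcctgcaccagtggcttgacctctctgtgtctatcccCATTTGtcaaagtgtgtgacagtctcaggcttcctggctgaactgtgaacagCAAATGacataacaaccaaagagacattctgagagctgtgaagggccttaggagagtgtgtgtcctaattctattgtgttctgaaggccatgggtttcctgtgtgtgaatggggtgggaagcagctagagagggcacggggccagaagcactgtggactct
Igf2r (chr17:12769707-12769956, minus strand): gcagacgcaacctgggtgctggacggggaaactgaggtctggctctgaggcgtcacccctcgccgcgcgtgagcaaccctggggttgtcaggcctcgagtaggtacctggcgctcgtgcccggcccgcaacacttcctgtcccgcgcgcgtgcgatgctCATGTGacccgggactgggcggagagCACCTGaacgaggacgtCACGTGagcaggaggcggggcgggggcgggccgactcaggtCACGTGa
Igfbp3 (chr11:7213924-7214173, minus strand): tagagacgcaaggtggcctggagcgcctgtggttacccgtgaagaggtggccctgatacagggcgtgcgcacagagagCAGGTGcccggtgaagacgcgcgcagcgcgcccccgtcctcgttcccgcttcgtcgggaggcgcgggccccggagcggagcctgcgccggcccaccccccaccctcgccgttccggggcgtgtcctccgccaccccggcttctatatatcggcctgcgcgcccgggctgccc
Igfbp5 (chr1:72874866-72875115, minus strand): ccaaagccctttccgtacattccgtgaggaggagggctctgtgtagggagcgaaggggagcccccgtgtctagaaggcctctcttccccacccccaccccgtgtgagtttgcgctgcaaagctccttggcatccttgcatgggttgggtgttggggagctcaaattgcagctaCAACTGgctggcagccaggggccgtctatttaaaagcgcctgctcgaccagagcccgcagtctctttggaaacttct
The Igf1 window held 1 match, which has the letters CAGCTG and begins 157 bases before the start. The Igf2 window held 2 matches, while the windows of the other 3 Igf2 starts held 0. The Igf2r window held 4 matches, all within 91 bases of the start. Igfbp3 and Igfbp5 held 1 each, at 172 and 77 bases before the start. Among the members not printed, Igf1r held 0 and Igfbp4, Igfbp6 and Irs1 held 1 each, as did both Igfbp2 starts. Of 32851 windows of this length in the same table, 66.22% held at least 1 CANNTG, 13% held CAGCTG, and 3.835% held 4 or more CANNTG, so most of these matches are common ones. The array reads a transcript without saying from which start it came. Igfbp2 and Igfbp5 lie beside each other on chromosome 1 with 0 protein-coding genes between them.

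The labels and the groups were checked first. Smarca4, which encodes BRG1, stood at 52.95% of its siScramble level in siBRG1, Smarcd2 (BAF60b) at 34.1% in siBAF60b and Smarcd3 (BAF60c) at 52.3% in siBAF60c, although none passed when adjusted over all genes (limma adjusted p = 0.515, 0.679 and 0.858). Of 11 muscle markers, 10 were measured. Against GM, 10.5% of all genes rose in DM and 6.3% in siScramble, and 7 and 6 of these markers did so. Their summed linear level was 4537 to 5043 in GM, 41573 to 58833 in DM, 28969 to 36332 in siScramble, 14865 to 18219 in siBRG1, 22471 to 29681 in siBAF60b and 15415 to 30898 in siBAF60c. Of 5 fibroblast markers, Dcn, Pdgfra and Col3a1 were detected on all arrays, Thy1 on 1 and Lum on 0. Their summed level was 875 to 1054 in GM, 2700 to 3616 in DM, 2649 to 2650 in siScramble, 2440 to 2819 in siBRG1, 2971 to 3935 in siBAF60b and 3675 to 4058 in siBAF60c. Their part in the results below was not tested, and in these bulk samples fewer cells of a type and less RNA per cell cannot be told apart. DM replicate 2 stood apart. The 2 DM arrays correlated at 0.945 against 0.979 to 0.988 in the other groups. For 25.5% of 3438 genes with several probes, the gap between the brightest and the next probe on that array was off by more than 1 on the log2 scale from the median of the other arrays, against 0.989% to 6.40% on the other 11 arrays. The cause was not tested, and results that rest on DM are given below with and without that array. The arrays lay on 3 BeadChips. The first held replicate 1 of each transfected group. The second held replicate 1 of GM and of DM, together with replicate 2 of siBAF60c, siBAF60b and siScramble. The third held the remaining arrays, replicate 2 of siBRG1, DM and GM.

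All levels below are normalised log2 intensities of a gene's brightest probe, each gene was compared only with itself, and differences are on the log2 scale, each given with its standard error (SE). A gene was called changed at a limma adjusted p under 0.05 over all 10346 genes, and all adjusted p-values are from that fit unless a probe-level fit is named.

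**Figure D1:**
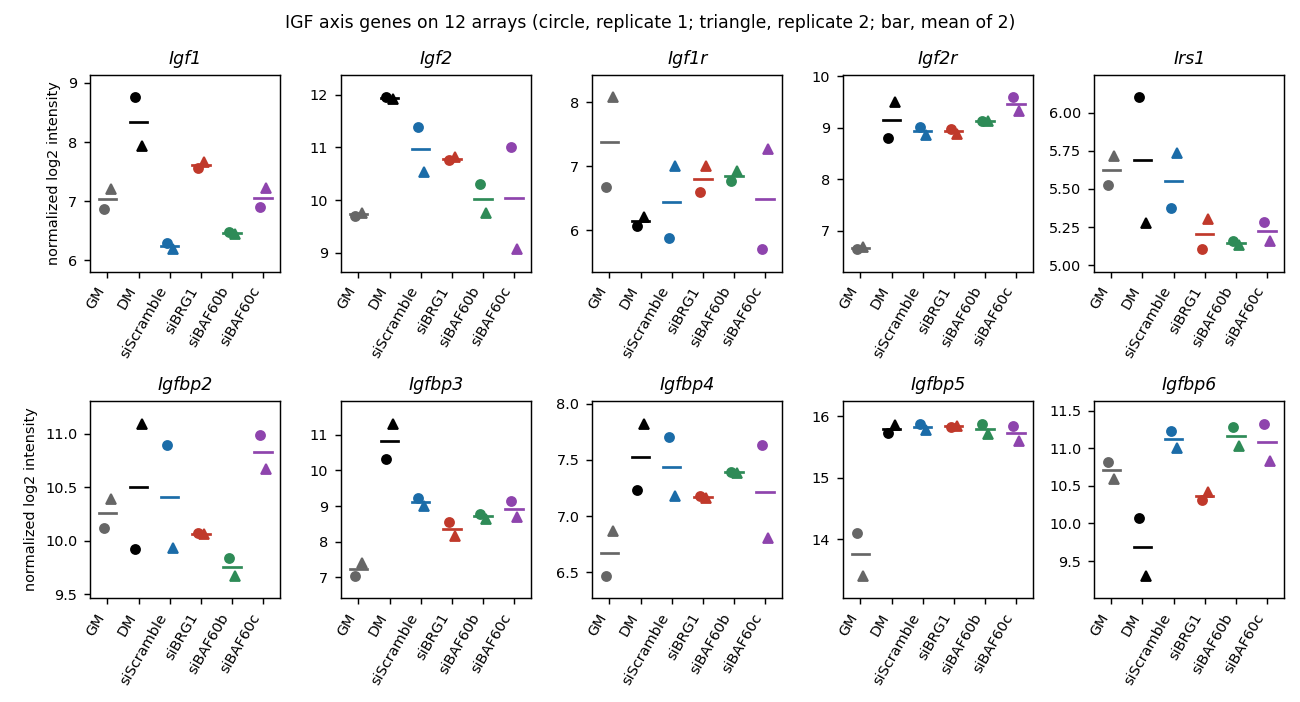
Normalised log2 intensity (y axis, a range of its own for each gene) of the 10 members by group (x axis), with a circle for replicate 1, a triangle for replicate 2 and a bar for their mean. Igf2r, Igfbp3 and Igfbp5 stood lower on both GM arrays than on every other array, and Igf1 was lowest in siScramble.

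The shift of wild-type cells from growth to differentiation medium came with higher Igf1, Igf2, Igf2r, Igfbp3 and Igfbp5 and lower Igfbp6. These 6 of 10 members were called, against 19.4% of all genes (10.5% higher and 8.93% lower). The median member difference was 1.08, beside 0.07 over all genes. Igfbp3 had the widest difference of the members.

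Both ligands rose. Igf2, the fetal ligand that myoblasts also make, read 9.69 and 9.76 in GM and 11.95 and 11.92 in DM. The arrays of each group lay within 0.1 of each other, far less than the gap between the groups. The difference was 2.21 (SE 0.47, adjusted p = 0.00487, n = 2 arrays per group), or 4.62-fold. With median scaling it was 1.40 and still passed. It was 2.26 on the second BeadChip and 2.16 on the third, and 2.22 without DM replicate 2. Igf1, the ligand that carries much of the growth hormone response, read 6.86 and 7.21 in GM and 8.76 and 7.94 in DM. Both DM arrays were above both GM arrays, but they were 0.82 apart. The difference was 1.31 (SE 0.30, adjusted p = 0.00688), or 2.48-fold. The differences within BeadChips, 1.89 and 0.73, were uneven. The call ended with median scaling in place of quantile normalisation (0.56, adjusted p = 0.473), with only the GM and DM arrays in the fit (adjusted p = 0.0835) and without GM replicate 1 (1.14, adjusted p = 0.0729). Without DM replicate 2 the difference was 1.72 and was called. Without background correction it was 0.86 and on the authors' processed values 0.84, and it was called in both. A dimmer Igf1 probe read 6.20 and 6.04 in GM and 7.33 and 6.11 in DM, so that only DM replicate 1 was clearly higher, and its difference of 0.60 did not pass (probe-level limma adjusted p = 0.335).

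Of the receptors, Igf2r rose. It read 6.65 and 6.69 in GM and 8.80 and 9.51 in DM, and every one of the 10 arrays in differentiation medium was at least as high as 8.80. The difference was 2.49 (SE 0.28, adjusted p = 2.58e-05), or 5.61-fold. It was 2.14 without DM replicate 2 and 1.65 on the authors' processed values. The dimmer Igf2r probe also rose, by 1.61 (probe-level limma adjusted p = 0.0118). Igf1r, the signalling receptor, read 6.67 and 8.07 in GM and 6.06 and 6.21 in DM. The GM arrays differed by more than most groups did, and the difference of -1.23 did not pass (SE 0.51, adjusted p = 0.109, 95% confidence interval -2.33 to -0.14). It passed with median scaling (-1.99, adjusted p = 0.045) and with the replicate number as a block (replicate block, adjusted p = 0.033). One of 3 dimmer Igf1r probes, detected on 3 of 12 arrays, differed by -0.89 (probe-level limma adjusted p = 0.0424), and the other 2 by -0.14 and -0.16. Irs1, which links the receptor to PI3K, was detected on 5 of 12 arrays: both of GM, DM replicate 1, siScramble replicate 2 and siBRG1 replicate 2. Its values spanned 5.11 to 6.10, close to the detection limit, and no fold is given for it. The Irs1 contrast between DM and GM was 0.07 (adjusted p = 0.908).

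Among the binding proteins, Igfbp3, the main carrier of IGFs in serum, read 7.05 and 7.42 in GM and 10.32 and 11.31 in DM. The groups were separated by nearly 3 log2 units at their nearest arrays. The difference was 3.58 (SE 0.33, adjusted p = 4.23e-06), and it was 3.09 without DM replicate 2. The dimmer Igfbp3 probe read 5.66 and 5.56 in GM and 8.39 and 5.96 in DM. There DM replicate 1 was far above GM and DM replicate 2 only slightly so, and the difference of 1.56 did not pass (probe-level limma adjusted p = 0.0856). The gap between the Igfbp3 probes was 5.36 on DM replicate 2 and 1.40 to 2.62 on the other 11 arrays.

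Igfbp5, the binding protein that differentiating myoblasts secrete, was bright in every group. It read 14.10 and 13.41 in GM and 15.74 and 15.85 in DM. After quantile normalisation the DM arrays lay within 0.12 of each other and above both GM arrays. The scanner signals on the DM arrays were 62831 and 46736. The difference was 2.04 (SE 0.28, adjusted p = 1.48e-04), or 4.11-fold. The scanner signal of this probe was 48.9% and 17.8% of the array's highest signal on the GM arrays and 80.5% to 95.8% on the other 10, close to the top of the range. The dimmer Igfbp5 probes differed by more, 2.37 and 2.59, and both passed in the probe-level fit. On the arrays in differentiation medium their signals were 51.9% to 94.2% and 33.8% to 59.2% of the highest signal. Quantile normalisation gives equal ranks 1 value, and by the brightest probe siScramble replicate 1 and siBAF60b replicate 1 both read 15.8803. Whether the scanner limit or the normalisation set the smaller difference of the brightest probe was not tested.

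Igfbp6, which binds IGF2 in preference to IGF1, read 10.81 and 10.60 in GM and 10.08 and 9.31 in DM, and was the only member called lower. Its difference was -1.01 (SE 0.30, adjusted p = 0.0306), or 2.02-fold lower. The call rested on DM replicate 2, the lower of the DM arrays: without that array the difference was -0.63 (adjusted p = 0.192) and without DM replicate 1 it was -1.40 (adjusted p = 0.00325). With median scaling it was -1.84 and passed (adjusted p = 0.0194). The call also ended without GM replicate 1 (-0.90, adjusted p = 0.161), without GM replicate 2 (-1.12, adjusted p = 0.0949), with array weights (adjusted p = 0.117) and with only these 4 arrays in the fit (adjusted p = 0.154). Igfbp4, an inhibitory binding protein, read 6.47 and 6.87 in GM and 7.23 and 7.82 in DM. Its arrays did not overlap, but the difference of 0.86 did not pass (SE 0.33, adjusted p = 0.0826). It passed when the BeadChip entered the fit as a fixed block (adjusted p = 0.0352) or a random block (adjusted p = 0.0483), and without DM replicate 1 (1.15, adjusted p = 0.0263). Igfbp2, an abundant binding protein of embryonic tissues, read 10.12 and 10.39 in GM and 9.92 and 11.10 in DM, so the groups overlapped. Its difference was 0.25 (SE 0.38, adjusted p = 0.696, 95% confidence interval -0.56 to 1.07). The second Igfbp2 probe pointed the other way, 9.78 and 9.68 in GM and 9.21 and 7.03 in DM, with a difference of -1.61 (probe-level limma adjusted p = 0.063). On DM replicate 2 the gap between these probes was 4.06, against 0.34 to 1.06 on the other 11 arrays.

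**Figure D2:**
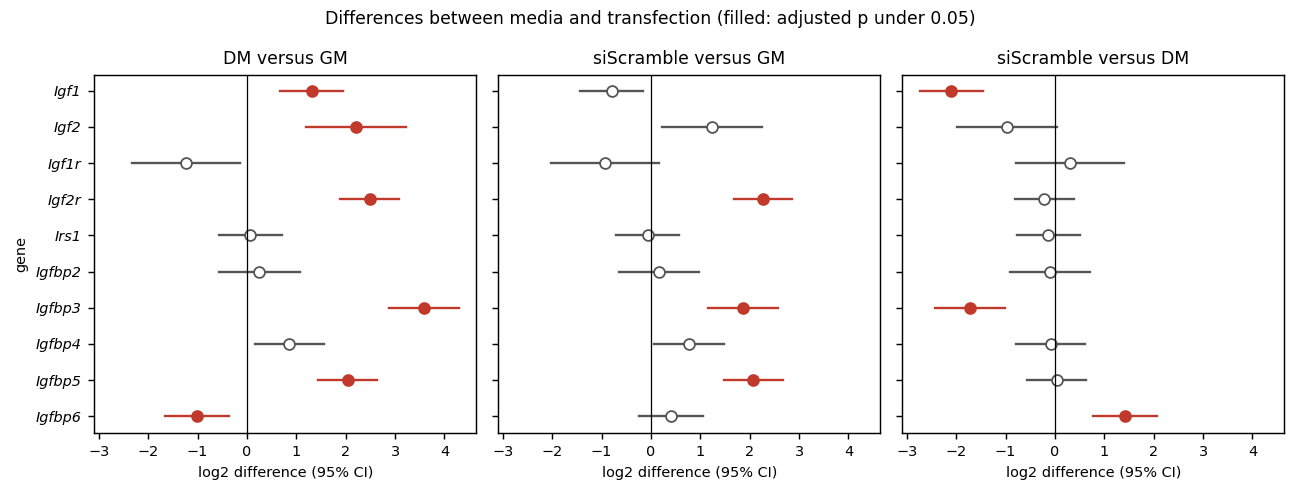
Log2 differences with 95% confidence intervals (x axis) of the 10 members (y axis) for DM against GM, siScramble against GM and siScramble against DM, filled where the adjusted p was under 0.05. Igf2r, Igfbp3 and Igfbp5 were filled in both comparisons with GM, while Igf1, Igfbp3 and Igfbp6 were filled between siScramble and DM.

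**Figure D3:**
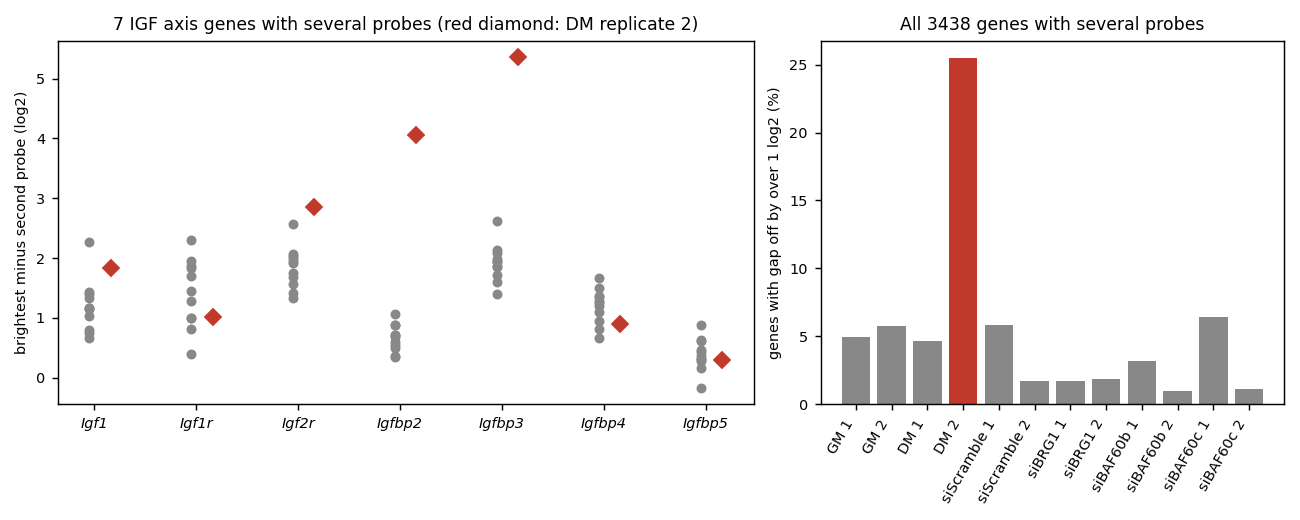
Left, the brightest minus the second probe of a gene (y axis, log2) on each array for the 7 members with several probes (x axis), with DM replicate 2 as a red diamond. Right, the share in percent (y axis) of 3438 genes whose gap was off by more than 1 from the median of the other arrays, by array (x axis), which was 25.5% on DM replicate 2 and at most 6.40% on the others.

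The scrambled siRNA cells had been through transfection and the same differentiation medium, so they give the axis in the control of the knockdowns. In siScramble against GM, Igf2r, Igfbp3 and Igfbp5 rose and none fell, 3 of 10 members against 12.3% of all genes (6.3% higher and 5.95% lower). The median member difference was 0.59, beside 0.01 over all genes. DM and siScramble are compared here with the same GM arrays.

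Igf2r read 9.01 and 8.87 in siScramble, a rise of 2.27 (SE 0.28, adjusted p = 7.74e-05), which was 1.47 on the authors' processed values. Igfbp5 read 15.88 and 15.78, a rise of 2.07 (SE 0.28, adjusted p = 1.72e-04). The dimmer Igfbp5 probes rose by 2.37 and 2.57. Igf2r in siScramble differed from DM by -0.22 (95% confidence interval -0.81 to 0.38). The dimmest Igfbp5 probe, the one farthest from the top of the scanner range, differed by -0.02 between siScramble and DM (probe-level limma adjusted p = 0.987). Igfbp3 read 9.22 and 8.99, between GM and DM, with a rise of 1.87 (SE 0.33, adjusted p = 0.00176). With median scaling, which shifted all genes by a median of -0.58 in this comparison, only Igfbp5 passed: Igf2r (1.498, adjusted p = 0.068) and Igfbp3 (1.08, adjusted p = 0.15) did not. Igf2 read 11.40 and 10.53, both above the GM arrays, but its difference of 1.23 did not pass (SE 0.47, adjusted p = 0.116). It passed with only these 4 arrays in the fit (adjusted p = 0.0096). Igf1 read 6.30 and 6.19 and was below both GM arrays, where in DM it was above them. Its difference from GM of -0.79 did not pass (SE 0.30, adjusted p = 0.106), except with array weights (adjusted p = 0.0394).

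Between siScramble and DM themselves, Igf1 and Igfbp3 were lower and Igfbp6 was higher in siScramble. These were 3 of 10 members, against 3.4% of all genes (1.66% higher and 1.74% lower). Igf1 was 2.10 lower on the log2 scale (difference -2.10, SE 0.30, adjusted p = 0.00123), or 4.29-fold, and was -2.57 within the second BeadChip, the only one that holds both groups. The difference was -2.51 without DM replicate 2 and -1.69 without DM replicate 1, and it passed in both cases. It was -1.24 without background correction and -1.20 on the authors' processed values, and passed in both. The dimmer Igf1 probe differed by -1.24 and did not pass (probe-level limma adjusted p = 0.132). Igfbp3 differed by -1.71 (SE 0.33, adjusted p = 0.0116), but by -1.22 without DM replicate 2, which ended the call (adjusted p = 0.0761). Its dimmer probe differed by -0.11 (probe-level limma adjusted p = 0.949). The mean of its probes differed by -0.91 (adjusted p = 0.138). Igfbp6 read 11.23 and 11.00 in siScramble, above GM and DM, and was higher than DM by 1.42 (SE 0.30, adjusted p = 0.0195). Without DM replicate 2 it was 1.04 (adjusted p = 0.114). When the BeadChip entered as a fixed block the call also ended (1.23, adjusted p = 0.0695), and within the second BeadChip the difference was 0.93. Leaving out siScramble replicate 1 or 2 also ended the calls of Igfbp3 (adjusted p = 0.0558 and 0.0986) and Igfbp6 (adjusted p = 0.139 and 0.0797). With median scaling or with only these 4 arrays in the fit, none of the 3 passed. Igf2 differed by -0.97 (adjusted p = 0.291, 95% confidence interval -1.99 to 0.04) and was -1.43 within the second BeadChip. Of the 3 fibroblast markers tested only Dcn passed between siScramble and DM, higher by 2.03 (adjusted p = 0.00782). Col3a1 had a mean of 10.67 in siScramble and 11.46 in DM, and the list's median difference was -0.39. The neuronal marker Map2 was higher in siScramble than in DM by 1.99 (adjusted p = 0.00194). Of 4 neuronal markers 2 were tested, with Rbfox3 detected on 1 array and Syp on 2, and their summed level was 55.8 to 75.5 in GM, 92.3 to 97.1 in DM and 218 to 343 in siScramble. The part of these markers in the differences was not tested.

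The 3 knockdowns ask whether loss of a remodelling subunit changed the axis in differentiating cells. No member was called in any of them against siScramble by limma, while unadjusted p-values under 0.05 numbered 3 in siBRG1, 0 in siBAF60b and 1 in siBAF60c. Such p-values numbered 835, 365 and 477 among all 10346 genes, in the same order. Over all genes 0.28% were called in siBRG1 and 0.00967% in each of siBAF60b and siBAF60c, so a count of 0 among 10 members is near the background. The knockdowns share the siScramble arrays.

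**Figure D4:**
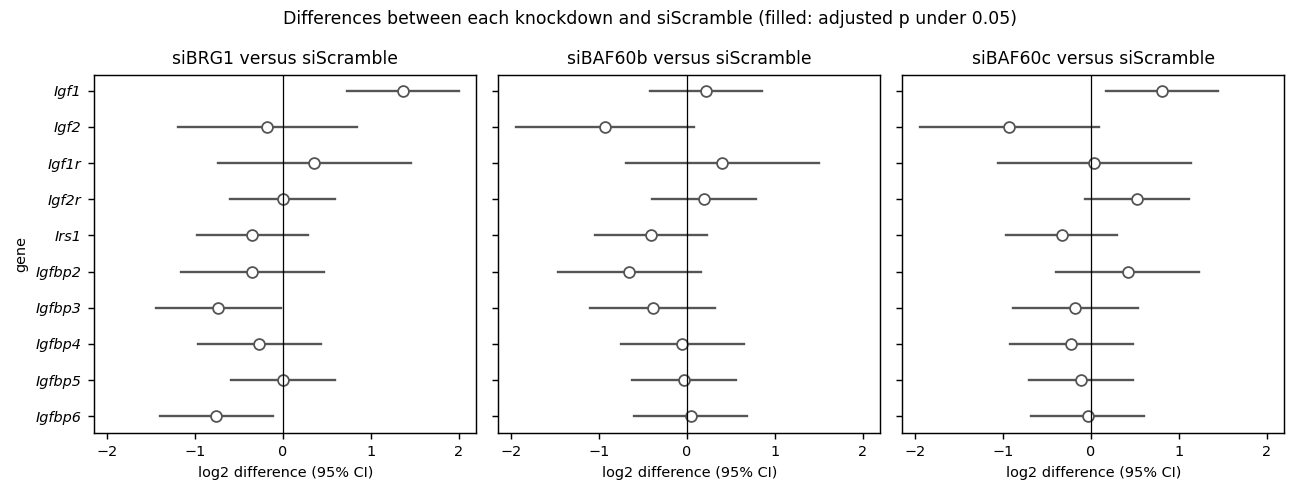
Log2 differences with 95% confidence intervals (x axis) of the 10 members (y axis) in siBRG1, siBAF60b and siBAF60c against siScramble. No point is filled, since none had an adjusted p under 0.05, and the difference farthest from 0 is that of Igf1 in siBRG1, 1.37.

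Igf1 was nearest to a call, in siBRG1. It read 7.57 and 7.66 there, 6.30 and 6.19 in siScramble, 6.49 and 6.44 in siBAF60b, and 6.90 and 7.22 in siBAF60c. The siBRG1, siBAF60b and siBAF60c arrays all lay above both siScramble arrays without overlap, and siBRG1 lay above siBAF60c. How many of all genes were separated in this way was not counted. The siBRG1 difference was 1.37 (SE 0.30, adjusted p = 0.0813, 95% confidence interval 0.73 to 2.01), and it was 1.27 on the first BeadChip, the only one with both groups. It passed with array weights (adjusted p = 0.0075) and with only these 4 arrays in the fit (adjusted p = 0.0484). It was 0.72 without background correction (adjusted p = 0.178), 0.69 on the authors' processed values (adjusted p = 0.182) and 0.85 as the mean of its probes (adjusted p = 0.425). The dimmer Igf1 probe read 6.23 and 5.39 in siBRG1 and 5.51 and 5.44 in siScramble. Only siBRG1 replicate 1 was higher there, and the difference was 0.34 (probe-level limma adjusted p = 0.975). The siBAF60c difference of the brighter probe was 0.81 (adjusted p = 0.854, 95% confidence interval 0.18 to 1.45) and that in siBAF60b was 0.22 (adjusted p = 0.999). By group mean the order of Igf1 was DM, siBRG1, siBAF60c, GM, siBAF60b and siScramble, and of neighbours in that order only siBAF60c and GM overlapped.

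Igf2 read 10.76 and 10.81 in siBRG1, 10.30 and 9.76 in siBAF60b and 11.00 and 9.07 in siBAF60c, against 11.40 and 10.53 in siScramble. The siBRG1 arrays fell inside the siScramble range, both siBAF60b arrays fell below it, and the siBAF60c arrays were 1.93 apart. The differences were -0.18 in siBRG1 (95% confidence interval -1.19 to 0.84), -0.93 in siBAF60b (-1.95 to 0.08) and -0.93 in siBAF60c (-1.94 to 0.09), with adjusted p = 0.993, 0.999 and 1.0. The siBAF60c value was set by 1 array, since it was -1.89 without replicate 1 and 0.04 without replicate 2. Within BeadChips, siBAF60b differed from siScramble by -1.10 and -0.77. DM stood above all other groups in Igf2, and the other 5 groups overlapped along the order siScramble, siBRG1, siBAF60c, siBAF60b and GM.

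Igf2r and Igfbp5, which rose with differentiation medium, stayed high in every knockdown. Igf2r read 8.99 and 8.89 in siBRG1, 9.14 and 9.14 in siBAF60b and 9.60 and 9.34 in siBAF60c. Its siBRG1 difference from siScramble was 0.00 (95% confidence interval -0.60 to 0.59), and in siBAF60c it was 0.53 (-0.07 to 1.12). Igfbp5 read 15.60 to 15.88 on all 6 knockdown arrays, where its brightest probe was near the top of the scanner range. Its siBRG1 difference from siScramble was 0.01 by that probe, which cannot bound a change there. By the dimmer probes it was -0.24 and -0.41, and neither passed (probe-level limma adjusted p = 0.97 and 0.88). The dimmest probe read 14.62 and 14.83 in siBRG1 and 15.06 and 15.20 in siScramble, without overlap. In siBAF60c it read 15.01 and 15.02, also below both siScramble arrays, and in siBAF60b 14.87 and 15.10, which overlapped them.

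The other binding proteins moved less than their spread allowed to be called. Igfbp3 read 8.57 and 8.17 in siBRG1, below both siScramble arrays (difference -0.74, adjusted p = 0.588). Igfbp6 read 10.31 and 10.41 in siBRG1, also below both (difference -0.76, adjusted p = 0.502). Both had unadjusted p-values under 0.05, and neither passed over all genes. In siBAF60b Igfbp3 read 8.78 and 8.65, also below both siScramble arrays (difference -0.39, adjusted p = 0.999). In siBAF60c it read 9.15 and 8.70, which overlapped siScramble. The Igfbp6 arrays of siBAF60b and siBAF60c ran from 10.83 to 11.33. Igfbp4 read 7.70 and 7.18 in siScramble and differed from it by -0.27, -0.05 and -0.22 in siBRG1, siBAF60b and siBAF60c. Igfbp2 read 10.07 and 10.07 in siBRG1, 9.84 and 9.68 in siBAF60b and 10.99 and 10.68 in siBAF60c, against 10.89 and 9.94 in siScramble. Only siBAF60b was wholly below siScramble. In siScramble Igf1r read 5.88 and 7.01. In the knockdowns it read 6.60 and 6.999 (siBRG1), 6.77 and 6.92 (siBAF60b) and 5.70 and 7.26 (siBAF60c). All siBRG1 and siBAF60b arrays lay inside the siScramble range. Its differences from siScramble were 0.36, 0.40 and 0.04 in that order of knockdowns, with 95% confidence intervals that reached well to both sides of 0, such as -0.74 to 1.45 in siBRG1.

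Between the knockdowns no member was called either. Over all genes 0.087% were called for siBAF60b against siBRG1, 0.116% for siBAF60c against siBRG1 and 0% for siBAF60c against siBAF60b. By limma, unadjusted p-values under 0.05 numbered 626, 732 and 514 among all 10346 genes, in that order. Among the 10 members those p-values numbered 2, 1 and 1. Igf1 was lower in siBAF60b than in siBRG1 by 1.15 on the log2 scale (difference -1.15, adjusted p = 0.203), which passed with array weights (adjusted p = 0.0119). Against siBRG1, Igfbp6 was higher by 0.80 in siBAF60b and by 0.72 in siBAF60c (adjusted p = 0.617 for both). Igfbp2 was 1.07 higher in siBAF60c than in siBAF60b (adjusted p = 0.778, 95% confidence interval 0.26 to 1.89).

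Other genes of the axis and the pathways below the receptor were read from lists written from general knowledge, with earlier results of these data known. Of 23 further IGF and insulin axis genes 11 were tested, and 2 rose and 1 fell in DM, with a median of -0.12. Stc1, stanniocalcin 1, known from the human proteins as an inhibitor of PAPPA, the protease that cuts IGF binding proteins, was not detected in GM and was at least 35.4-fold higher in DM (adjusted p = 2.91e-08) and at least 22.3-fold higher in siScramble (adjusted p = 1.54e-07). Each bound is the group's mean against the lowest detected signal on the GM arrays. Stc1 was also higher than in siBRG1 by 1.95 in siBAF60b (adjusted p = 0.0385) and by 1.72 in siBAF60c (adjusted p = 0.023). Igfbp7, a low-affinity relative of the binding proteins, fell by 1.31 in DM (adjusted p = 0.00428) and by 1.92 in siScramble (adjusted p = 3.19e-04). Ins2, which encodes insulin, was detected on 1 DM array and on no GM array. Its difference was 0.86 (adjusted p = 0.0429), with values close to the detection limit, so no fold is given for it.

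Of 33 genes of PI3K, AKT, mTOR and FOXO signalling 25 were tested, and 3 rose and 2 fell in DM, with a median of 0.10. In siScramble against GM 3 rose and 2 fell, with a median of -0.16, where 6.3% of all genes were called higher and 5.95% lower. Inppl1, the lipid phosphatase SHIP2, rose by 2.09 in DM (adjusted p = 3.47e-04) and by 1.47 in siScramble (adjusted p = 0.0061). Pik3r2, a regulatory subunit of PI3K, rose by 1.82 and 1.68 (adjusted p = 4.18e-04 and 0.00105). Pik3cb, a catalytic subunit, was not detected in DM and was at least 4.23-fold lower there (adjusted p = 1.10e-04). In siScramble it was detected on 1 array and differed by -2.05 (adjusted p = 4.84e-04). Rheb, the GTPase that activates mTOR, fell by 1.21 in DM (adjusted p = 0.0182), and Foxo1, a transcription factor held out of the nucleus by AKT, fell by 1.01 in siScramble (adjusted p = 0.0349). Trib3, an inhibitor of AKT, was higher in siScramble than in DM by 1.79 (adjusted p = 0.0361). Of 18 genes of SHC, RAS and ERK signalling 11 were tested, and Gab1, a docking protein, was the 1 gene that rose in DM (1.14, adjusted p = 0.0084). No gene of these 3 lists was called in any knockdown against siScramble. The list shares in DM, 3 of 11, 5 of 25 and 1 of 11, stand beside 19.4% of all genes.

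Over the 12 arrays, the genes whose levels ran most like a member's were ranked by Pearson's r among all genes kept. These arrays share groups, BeadChips and a GM to differentiation contrast, so r is a description. For Igf2 they were Acads (0.94), Pheta1 (0.92) and Anapc7 (0.88), and for Igf1 Tmem79 (0.90), Orm1 (0.89) and Rgs7bp (0.89). For Igfbp5 they were Tgm2 (0.99), C430049B03Rik (0.98) and Col16a1 (0.98), for Igfbp3 Otog (0.98), Lzts3 (0.98) and Sirt2 (0.98), for Igf2r Mest (0.97), Gramd1b (0.97) and Stc1 (0.97), and for Igfbp6 Apcdd1 (0.90), Serp1 (0.89) and Rhoc (0.89). Stc1 thus stood both among the axis genes and among those closest to Igf2r.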

How the data were processed

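The deposited scanner table gave 45281 probes on 12 arrays as linear intensity, each with its detection p-value, per the file headers. Of these, 23165 were in the authors' processed table, also as linear intensity and with identical ranks per array (Spearman correlation 1). Software and background setting are not given in the sources used here. Total RNA (500 ng) was labelled as Cy3 cRNA, per the labels. Scanner intensity was turned into background-corrected, quantile-normalised log2 values by neqc (limma 3.58.1, R 4.3.3, detection p-values, offset 16). A probe was kept when its detection p was under 0.05 on 2 or more arrays (17565 probes), probes with 1 gene symbol in the supplied annotation were named, and the brightest kept probe stood for a gene (10346). Detected probes numbered 12724 to 15414 per array, and 2 arrays per group limit the precision (median SE of a difference 0.31).

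All arrays were fitted with lmFit and eBayes (6 residual and 8.17 prior degrees of freedom, no covariate), with Benjamini-Hochberg adjustment over all genes in each of 9 comparisons. The script was tested on simulated data. The text names all 10 members, at most 2 called genes per list, comparison and direction, and the 3 genes most like each member called in DM. Members and lists were chosen with earlier results of these data known. Alternatives changed background correction, scaling, filter, probe choice, BeadChip block, replicate block, weights, groups in the fit, and left out each replicate. The mean of a gene's probes was added after seeing the data.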

Additional observations from a re-analysis of the deposited data

Results flagged for a closer look

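Against GM, 3 members stood differently in siScramble than in DM. Both changes use the same GM arrays, so the test is that of siScramble against DM, and without transfected cells in growth medium a different response to the medium and an effect of transfection cannot be told apart. By limma, the change against GM in siScramble minus that in DM was -2.10 for Igf1 (SE 0.30, adjusted p = 0.00123), -1.71 for Igfbp3 (SE 0.33, adjusted p = 0.0116) and 1.42 for Igfbp6 (SE 0.30, adjusted p = 0.0195). Igf1 was 1.31 above GM in DM and -0.79 from GM in siScramble, so its 2 changes had opposite signs, although the second did not pass on its own (adjusted p = 0.106). Igfbp3 was above GM in both, by 3.58 and 1.87. Igfbp6 was -1.01 from GM in DM and 0.41 in siScramble. The calls of Igfbp3 and Igfbp6 ended when DM replicate 2 was left out, at -1.22 for Igfbp3 (adjusted p = 0.0761) and 1.04 for Igfbp6 (adjusted p = 0.114). The Igfbp6 call also ended with the BeadChip as a fixed block (1.23, adjusted p = 0.0695). The call of Igf1 did not end without DM replicate 2 (-2.51), and its size was -1.20 on the authors' processed values. It ended with median scaling (-2.00, adjusted p = 0.14) and with only the siScramble and DM arrays in the fit (adjusted p = 0.0695). The calls of Igfbp3 and Igfbp6 ended there too. With array weights the calls of Igfbp3 (adjusted p = 0.0915) and Igfbp6 (adjusted p = 0.149) ended, and that of Igf1 did not. The dimmer Igf1 and Igfbp3 probes did not pass in the probe-level fit. The mean of the Igfbp3 probes differed by -0.91 and did not pass either (limma adjusted p = 0.138).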

How the results depend on the processing

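Igf2, Igf2r, Igfbp3 and Igfbp5 in DM against GM, and Igfbp5 in siScramble against GM, were called under all 16 alternatives run for each. Of these alternatives only the mean of a gene's probes read more than its brightest probe. The dimmer Igfbp3 probe did not pass in DM against GM in the probe-level fit. Of 1431 values of single members under alternatives, 1395 kept their side of the threshold, 26 lost a call, 10 gained one and 0 called values changed sign. Of 144 counts of called members 23 differed from the reported count, 10 of them by more than 1.5 times or to or from 0. With median scaling, which shifted all genes by a median of -0.48 in DM against GM and 0.32 in siBRG1 against siScramble, the count fell to 1 in siScramble against GM and to 0 in siScramble against DM. Array weights, which are equal within a group of 2 arrays, gave 1 in siScramble against DM, 1 in siBRG1 against siScramble and 1 in siBAF60b against siBRG1. With only the groups compared in the fit the count was 0 in siScramble against DM and 1 in siBRG1 against siScramble. Leaving out 1 replicate gave 1 to 3 in siScramble against DM and 4 to 7 in DM against GM. Causes were not tested. Irs1 has no value under the filter of 6 arrays.

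Over all genes, the 2010 calls in DM against GM became 947 with array weights, 730 with only those groups, and 937 to 3471 without 1 replicate. The 1268 in siScramble against GM became 735 with median scaling, 1768 with array weights and 1756 with only those groups. The 352 in siScramble against DM became 23 with median scaling, 77 with array weights, 36 with only those groups and 115 to 2303 without 1 replicate, the highest without DM replicate 1. The 29 in siBRG1 against siScramble became 0 with median scaling, 46 with the BeadChip as a random block, 133 with array weights and 1 to 3 without 1 replicate. The 1 call in each of siBAF60b and siBAF60c against siScramble ranged from 0 to 6 and 0 to 5, and the 9, 12 and 0 calls between knockdowns from 0 to 177, 0 to 93 and 0 to 26. The replicate numbers are not said to mark a shared day or batch, and correlations of same-numbered deviations were 0.003 to 0.33. With the replicate block, 7 members were called in DM against GM in place of 6 (Igf1r, -1.23, adjusted p = 0.033), and calls of members in the other comparisons did not change. Members near the detection limit (Irs1 and the dimmer Igf1r probes) have little signal above background.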
